A study of Mus musculus with 15 samples.

Results

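Neutrophils pack antimicrobial proteins into granules that are filled in order as the cell matures in the bone marrow. Azurophil granules are loaded first, in promyelocytes, with myeloperoxidase and the serine proteases elastase, cathepsin G and proteinase 3. Later stages make lactoferrin, cathelicidin and other proteins of the secondary and tertiary granules, and the cytosol then fills with S100A8 and S100A9, so the balance between early and late transcripts is commonly read as a stage of maturation. Macrophages and osteoclasts are made from the same marrow progenitors, and cultures of bone marrow-derived macrophages (BMDMs) start from marrow that also holds neutrophil precursors.

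The granule genes were taken by name from the deposited expression table, as 4 azurophil genes (*Mpo*, *Elane*, *Ctsg* and *Prtn3*) and 6 later ones (*Ltf*, *Ngp*, *Camp*, *Lcn2*, *S100a8* and *S100a9*). All 10 were among the 20089 complete entries of the table, and all 10 passed the filter on low values, which 11743 genes passed. The samples were BMDMs from wild-type C57BL/6 mice, a culture and not a sorted population, kept in M-CSF, the growth factor for macrophages. Control cells received M-CSF alone. The other groups received M-CSF with RANKL, the cytokine that drives osteoclast formation, or with lipopolysaccharide (LPS), a bacterial endotoxin, each for 4 h or for 72 h (given as 3 days in the labels). Each of the 5 groups had 3 samples. No group was kept in M-CSF alone for 72 h, so effects of a stimulus at 72 h and of the longer culture cannot be told apart. In bulk RNA, fewer cells of a type and less RNA per cell cannot be told apart either. The labels do not say that samples came from separate animals, so p-values measure the spread between these samples, which may be partly technical.

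Expression is given as FPKM, fragments per length of transcript and sequencing depth, which allows levels of different genes to be compared per length. Between 18306184 and 20330207 fragments lay on listed genes in each sample (median 19351141). The summed level of 8 macrophage markers, which included *Csf1r*, *Adgre1*, *Cd68* and *C1qa*, was 2804 to 4545 FPKM over the 15 samples. In control replicate 1, *Cd68* (1433 FPKM) and *C1qa* (1374 FPKM) made up most of the 3753 FPKM. The sum has no reference level, so it does not test the macrophage label. Some samples stood apart in the granule genes. Replicate 2 of the control, RANKL 4 h and LPS 4 h groups was the lowest of its group for all 6 later genes, 2.56- to 4.26-fold below the mean of the other samples, and was the lowest for none of the 4 azurophil genes. LPS 72 h replicate 3 was the highest of its group for all 4 azurophil genes and for 5 of the 6 later genes, 6.71- to 22.8-fold above the mean of the others for the azurophil genes. Values without these samples are given beside the comparisons where they change a call or move a value most.

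The upstream sequences of 5 members are shown because they carry the matches described next. Position counts are bases upstream of the RefSeq start, on build GRCm38.p6, 5′ to 3′ on the gene's strand, and each sequence ends where the gene's first annotated transcript in GENCODE M21 begins. Capitals mark matches to the motifs TTNNGCAA (for C/EBP factors, the whole half-site GCAA with only TT of the facing one) or GAGGAA (the core bound by PU.1). Both were read on either strand, so that TTGCNNAA and TTCCTC also count. *Elane* (chr10:79886062-79886246, plus strand) and *Ctsg* (chr14:56102575-56102824, minus strand) are azurophil, and *Ltf* (chr9:111019042-111019270, plus strand), *Ngp* (chr9:110419558-110419746, plus strand) and *S100a9* (chr3:90695722-90695971, minus strand) are later genes.
Elane: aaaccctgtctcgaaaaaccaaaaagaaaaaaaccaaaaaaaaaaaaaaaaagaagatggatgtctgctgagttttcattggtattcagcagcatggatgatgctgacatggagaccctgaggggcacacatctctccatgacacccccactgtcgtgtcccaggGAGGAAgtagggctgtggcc
Ctsg: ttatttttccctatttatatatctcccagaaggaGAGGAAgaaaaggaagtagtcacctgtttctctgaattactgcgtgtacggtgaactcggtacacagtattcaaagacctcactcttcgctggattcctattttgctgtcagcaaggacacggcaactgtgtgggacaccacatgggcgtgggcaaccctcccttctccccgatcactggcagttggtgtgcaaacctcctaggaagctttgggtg
Ltf: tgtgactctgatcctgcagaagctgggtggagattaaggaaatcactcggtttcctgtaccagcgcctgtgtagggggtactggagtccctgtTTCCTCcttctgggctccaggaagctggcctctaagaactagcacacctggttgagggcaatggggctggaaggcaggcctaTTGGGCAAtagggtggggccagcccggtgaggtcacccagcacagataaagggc
Ngp: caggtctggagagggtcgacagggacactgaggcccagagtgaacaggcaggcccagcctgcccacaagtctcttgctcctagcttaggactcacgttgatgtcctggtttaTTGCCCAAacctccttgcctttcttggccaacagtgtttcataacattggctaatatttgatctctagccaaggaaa
S100a9: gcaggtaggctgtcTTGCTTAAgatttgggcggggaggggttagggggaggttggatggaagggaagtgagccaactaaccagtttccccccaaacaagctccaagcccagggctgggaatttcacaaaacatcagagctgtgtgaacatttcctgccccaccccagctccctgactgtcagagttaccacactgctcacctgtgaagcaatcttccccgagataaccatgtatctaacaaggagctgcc

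In the 250 bases upstream of the RefSeq start, GAGGAA was found in 4 of 4 azurophil and 3 of 6 later genes, against 23.3% of 32851 promoters of the same length. It lay 85 to 80 bases upstream in *Elane*, 95 to 90 in *Prtn3* and 216 to 211 in *Ctsg*, and occurred at a pair of places in *Mpo*. TTNNGCAA was found in none of the 4 azurophil genes and in 4 of 6 later genes (*Ltf*, *Ngp*, *Lcn2* and *S100a9*), against 9.56% of all promoters. An NF-κB consensus motif was found in 0 of 10, against 1.21%. Neither of the first motifs overlapped the other in these windows. These are matches of letters, with no measurement of binding. For *Mpo* and *Camp* much of the window (203 and 161 bases) lies inside a longer GENCODE transcript, and the windows of *Prtn3* and *Lcn2* lie wholly inside one.

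The genes lie in a few clusters. *Prtn3* (chr10, 79874476 to 79883174) and *Elane* (79886247 to 79888215) are next to each other on chromosome 10 with 3072 bases between them and no gene in between. *S100a8* (90668978 to 90670035) and *S100a9* (90692632 to 90695721) are neighbours on chromosome 3, 22596 bases apart. *Camp* (109847379 to 109849617), *Ngp* (110419747 to 110423012) and *Ltf* (111019271 to 111042767) all lie on chromosome 9, with 8 coding genes between *Camp* and *Ngp* and 20 between *Ngp* and *Ltf*. *Mpo* is on chromosome 11 (87793581 to 87804413), *Ctsg* on chromosome 14 (56099881 to 56102574) and *Lcn2* on chromosome 2 (32384633 to 32388252). These are whole genes in GENCODE M21 on GRCm38. *Prtn3* overlaps *Plppr3*, which was at 2.99 to 4.38 FPKM in control cells against 167 to 276 FPKM for *Prtn3*. The files do not state whether reads were counted by strand.

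Granule transcripts were abundant in control BMDMs. The 10 genes took 1.79%, 0.635% and 1.57% of all fragments in control replicates 1, 2 and 3. *S100a9* and *S100a8*, the subunits of calprotectin, which binds calcium and zinc, had the highest control means of the 10 at 7207 ± 3627 and 6059 ± 3225 FPKM (SD, n = 3). *Ngp*, a cystatin-like granule protein, followed at 2511 ± 1335 FPKM. *Lcn2* (lipocalin 2, which captures bacterial siderophores) and *Camp* (the cathelicidin precursor) were at 834 ± 450 and 802 ± 496 FPKM, and *Ltf* (lactoferrin, which binds iron) at 390 ± 232 FPKM. Among the azurophil genes *Elane* was at 336 ± 88.5, *Mpo* at 237 ± 70.8, *Prtn3* at 229 ± 55.9 and *Ctsg* at 94.7 ± 29.0 FPKM. Neighbours in this order overlapped in their samples, except *Prtn3* and *Ctsg*.

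**Figure D1:**
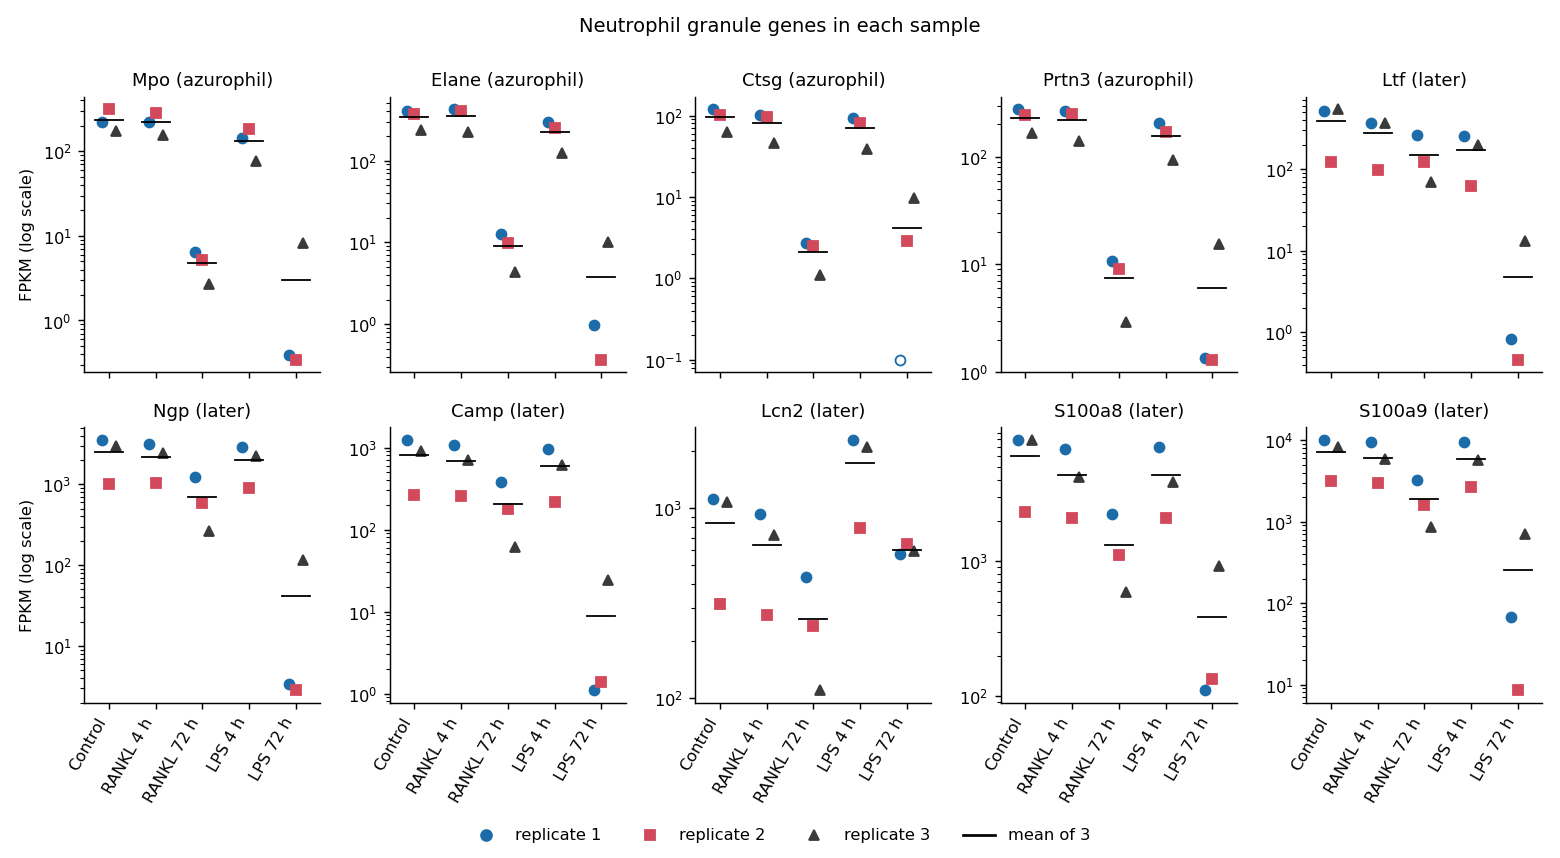
FPKM (log scale) of the 4 azurophil and 6 later granule genes in each of the 15 samples, with symbols for replicate numbers and a line for the mean of 3. The azurophil genes overlap control at 4 h and are low at 72 h under both stimuli. At LPS 4 h each azurophil value is 0.439 to 0.789 of the control sample of the same number. *Lcn2* is the only one of the 10 that lies within the control range in all 3 LPS 72 h samples. The open symbol for *Ctsg* is a value of 0, drawn at 0.1.

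After 72 h of RANKL the azurophil genes had fallen to a few percent of control, while the later genes had smaller log2 fold changes, and 4 of the 6 did not pass the test. All 4 azurophil genes and 2 of the 6 later genes (*Lcn2* and *S100a8*) were called lower, and none higher, where 7.54% of all tested genes were called lower (12.2% with samples centred on their median gene, which called the same number of members). A gene was called where its fold change was over 1.5 or under 0.66 with an adjusted p under 0.05 (limma, Benjamini-Hochberg over the 11743 genes), and log2 fold changes are differences of mean log2(FPKM + 0.1), which understates changes of low values. The median log2 fold change was -5.39 over the azurophil genes and -1.95 over the later genes, and 0.16 over all tested genes.

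*Mpo*, which makes hypochlorous acid in the phagosome, was at 224, 313 and 174 FPKM in control replicates 1, 2 and 3 and at 6.38, 5.25 and 2.72 FPKM in RANKL 72 h. The groups were far apart, and *Mpo* fell by 5.64 on the log2 scale (SE 0.83, limma adjusted p = 0.000286). *Elane*, neutrophil elastase, was at 399, 374 and 235 FPKM in control against 12.8, 9.80 and 4.31 FPKM in RANKL 72 h. Every treated sample lay below every control sample, as for 16.1% of all tested genes, and the log2 fold change was -5.31 (SE 0.82, adjusted p = 0.000400).
*Ctsg*, the chymotrypsin-like protease of the same granules, went from 119, 103 and 62.6 FPKM to 2.71, 2.49 and 1.09 FPKM, again without overlap (log2 fold change -5.48, SE 1.14, adjusted p = 0.00306). *Prtn3*, whose product cleaves many of the same substrates as elastase, went from 276, 244 and 167 FPKM to 10.7, 8.98 and 2.90 FPKM (log2 fold change -5.08, SE 0.75, adjusted p = 0.000298). Set against the control sample of the same number, the 12 azurophil ratios lay between 0.0157 and 0.0387, in all 3 replicate numbers and all 4 genes.

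*Ltf* was at 509, 123 and 539 FPKM in control against 261, 122 and 68.9 FPKM in RANKL 72 h. The groups overlapped, since replicate 2 of control lay within the range of the treated samples, and the log2 fold change of -1.31 (SE 1.02, adjusted p = 0.347) did not pass. *Ngp* was at 3538, 1002 and 2993 FPKM in control against 1216, 590 and 264 FPKM in RANKL 72 h. Only replicate 1 of the treated samples lay above the lowest control, and *Ngp* too did not pass (log2 fold change -1.94, SE 1.11, adjusted p = 0.200).
*Camp* was at 1241, 265 and 901 FPKM in control against 379, 179 and 61.4 FPKM in RANKL 72 h. The order of the samples was that of *Ngp*, and the log2 fold change was -2.05 (SE 1.05, adjusted p = 0.151). *S100a9* was at 10144, 3153 and 8323 FPKM in control against 3301, 1615 and 850 FPKM in RANKL 72 h, with a log2 fold change of -1.96 (SE 1.14, adjusted p = 0.207). Its replicate 1 of RANKL 72 h lay just above the lowest control sample.

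*S100a8* was at 7891, 2335 and 7950 FPKM in control against 2261, 1120 and 594 FPKM in RANKL 72 h, and its groups did not overlap. It fell by 2.20 on the log2 scale (SE 0.79, adjusted p = 0.0487). *Lcn2* was at 1115, 315 and 1072 FPKM in control against 434, 240 and 110 FPKM in RANKL 72 h. It fell by 1.68 on the log2 scale (SE 0.60, adjusted p = 0.0488), with control replicate 2 below RANKL 72 h replicate 1. Both calls lay close to the threshold. Over 29 settings of the analysis, 1 of which used unadjusted p-values, *Lcn2* was called in 15 (p between 0.0148 and 0.194) and *S100a8* in 15 (p between 0.0148 and 0.168), whereas *Mpo* was called in all 29 (p at most 0.0153). In a fit of control and RANKL 72 h alone with the replicate number as a block, added after seeing the data, 9 of the 10 genes were called lower, *Ltf* being the exception, among them *Ngp* (adjusted p = 0.0275), *Camp* (0.0364) and *S100a9* (0.0188). That fit called 8.13% of all genes lower. Deviations from the group means of same-numbered samples of these groups correlated at only 0.136 to 0.318. For replicate 3 a sample of another number was closer (0.265 against 0.184), so the numbers may not pair these samples.

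The 18 ratios of later genes to the control sample of the same number were all below 1 and ranged from 0.0681 to 0.989. For all 6 the ratio was highest in replicate 2 and lowest in replicate 3. *Camp* was at 30.5%, 67.6% and 6.81% of control in replicates 1, 2 and 3, and *S100a9* at 32.5%, 51.2% and 10.2%. The azurophil ratios were closer together, with *Elane* at 3.21%, 2.62% and 1.83% of control. Without replicate 2 of all groups, the log2 fold changes were -5.53 for *Mpo*, -5.34 for *Elane*, -5.24 for *Prtn3* and -2.32 for *Lcn2*, all 4 called, while *Ctsg* (-5.56, adjusted p = 0.0702) and *S100a8* (-2.77, adjusted p = 0.0971) no longer passed. Without LPS 72 h replicate 3, which enters through the shared estimate of spread, *Ngp* passed (adjusted p = 0.0310) and *Lcn2* did not (adjusted p = 0.0538).

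**Figure D2:**
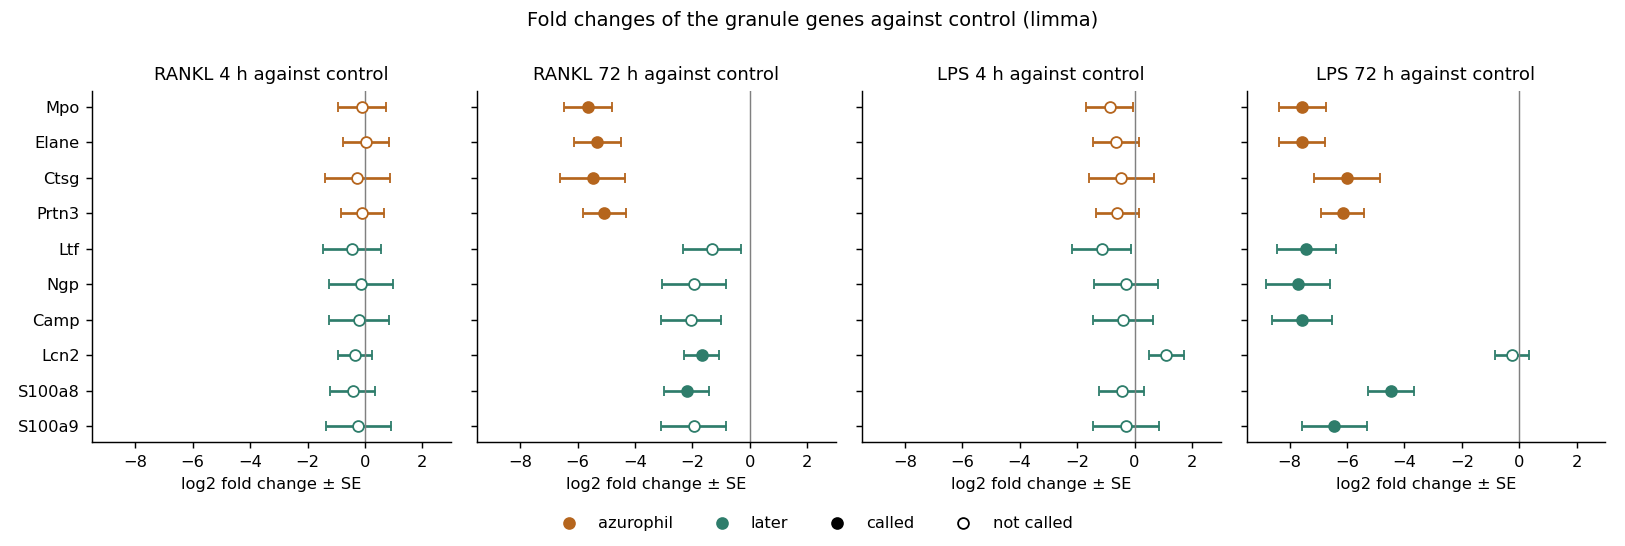
Log2 fold change against control with its standard error (limma, n = 3 per group) for each granule gene, azurophil in brown and later in green, filled where the gene was called. At RANKL 72 h the azurophil genes lie between -5.64 and -5.08 and the later genes between -2.20 and -1.31, and at LPS 72 h *Lcn2* alone stays near 0.

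The balance between early and late transcripts is described here by sample, and its difference between groups was not tested. The mean log2 level of the 4 azurophil genes minus that of the 6 later genes was -3.38, -1.48 and -3.91 in control replicates 1, 2 and 3. It was -6.91, -6.15 and -6.27 in RANKL 72 h, below every control sample. In LPS 72 h it was -4.92, -3.52 and -3.86, and without *Lcn2* -3.89, -2.34 and -3.47, which overlapped the control values without *Lcn2* of -3.60, -1.69 and -4.11. The ratio of *Mpo* to *Ltf* in FPKM was 0.322 to 2.55 in control, 0.0244 to 0.0431 in RANKL 72 h and 0.471 to 0.746 in LPS 72 h. The ratio of *Elane* to *Ngp* gave the same order, with 0.0786 to 0.374 in control, 0.0106 to 0.0166 in RANKL 72 h and 0.0864 to 0.289 in LPS 72 h. In RANKL 72 h the 10 genes still held 0.575%, 0.283% and 0.141% of all fragments.

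**Figure D3:**
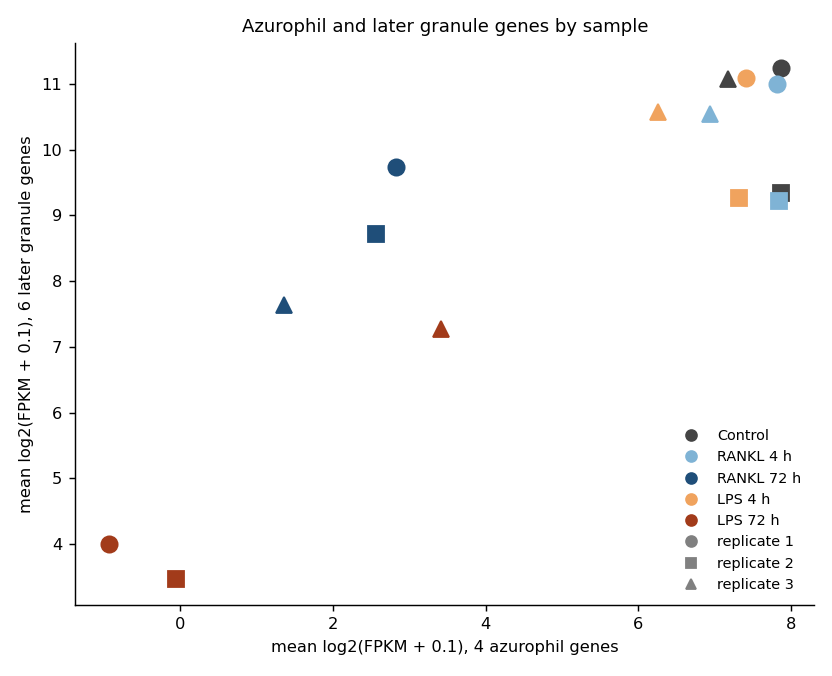
Mean log2(FPKM + 0.1) of the 4 azurophil genes (x axis) against that of the 6 later genes (y axis) in each of the 15 samples, coloured by group with a symbol for the replicate number. The 9 samples of control and of both 4 h groups lie together at the right, with replicate 2 of each lower on the y axis. The 3 RANKL 72 h samples are low on the x axis and intermediate on the y axis, and LPS 72 h replicates 1 and 2 are low on both.

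After 72 h of LPS both sets fell, with log2 fold changes down to -7.69, and *Lcn2* did not follow them. All 4 azurophil genes and 5 of the 6 later genes were called lower and none higher, where 14.4% of tested genes were called lower. *Mpo* was at 0.387, 0.343 and 8.32 FPKM in LPS 72 h replicates 1, 2 and 3 and *Elane* at 0.970, 0.369 and 10.1 FPKM, far below every control sample. Their log2 fold changes against control were -7.56 (SE 0.83, limma adjusted p = 2.53e-05) and -7.57 (SE 0.82, adjusted p = 2.31e-05).
*Prtn3* was at 1.35, 1.30 and 15.6 FPKM (log2 fold change -6.15, SE 0.75, adjusted p = 5.52e-05). *Ctsg* was at 0, 2.87 and 9.63 FPKM, so it was undetected in replicate 1, where the 3 fragments that a count of 0 allows would be 0.141 FPKM, and in replicate 2 it was above the other azurophil genes. Its log2 fold change was -6.01 (SE 1.14, adjusted p = 0.00126), but -4.09 without replicate 1, whose 0 takes the pseudocount as its level, and -7.39 without replicate 3. Fragment numbers were small in replicates 1 and 2, down to 7 for *Elane* and 18 for *Mpo*, so these values carry a large counting error.

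*Ngp* went from 3538, 1002 and 2993 FPKM in control to 3.36, 2.84 and 117 FPKM in LPS 72 h. That was a log2 fold change of -7.69 (SE 1.11, adjusted p = 0.000177), the largest among the 10 genes. *Camp* was at 1.10, 1.38 and 23.9 FPKM (log2 fold change -7.58, SE 1.05, adjusted p = 0.000132) and *Ltf* at 0.822, 0.460 and 13.0 FPKM (-7.42, SE 1.02, adjusted p = 0.000130). All 3 secondary granule genes were thus lower than in any other group. In LPS 72 h replicates 1 and 2, *Camp* had 14 and 17 fragments and *Ltf* 48 and 26, so these values also carry a counting error. The 9 called genes had every LPS 72 h sample below every control sample, as had 21.0% of tested genes.
*S100a8* was at 111, 133 and 917 FPKM and *S100a9* at 67.5, 8.52 and 701 FPKM. The log2 fold change of *S100a8* was -4.47 (SE 0.79, adjusted p = 0.000777) and that of *S100a9* -6.44 (SE 1.14, adjusted p = 0.000803). The 2 genes, whose proteins pair, kept a ratio of *S100a8* to *S100a9* of 0.741 to 0.955 in control and 0.685 to 0.699 in RANKL 72 h. In LPS 72 h replicates 1, 2 and 3 it was 1.64, 15.7 and 1.31. The 15.7 rests on 1 sample, in which *S100a9* had 92 fragments. The ratio of *Ngp* to *Camp* was 2.85 to 3.79 in control and 2.06 to 4.90 in LPS 72 h.

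LPS 72 h replicate 3 also differed from replicates 1 and 2 in other lists. Its summed level of 6 stromal markers was 337 FPKM against 52.3 and 53.8 FPKM, nearly all of it from 3 collagen genes while *Dcn* and *Lum* were lower than in both, of 8 cell cycle genes 32.1 against 6.10 and 8.25, of 5 basophil and mast cell markers 6.15 against 0.576 and 0.893, and of 8 macrophage markers 4545 against 2812 and 3040. Its eosinophil sum was the lowest of the group, at 1.38 against 2.72 and 1.62 FPKM, and its erythroid sum of 0.597 lay between the 0.566 and 0.892 FPKM of the others. The part of these cells in the granule values was not tested. Without that sample the log2 fold change was -8.95 for *Mpo*, -8.85 for *Elane*, -9.43 for *Ngp* and -8.06 for *S100a9*, and the same 9 genes were called.

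*Lcn2* was at 572, 648 and 594 FPKM in LPS 72 h, between the lowest and the highest of the control samples. Its log2 fold change of -0.26 (SE 0.60, adjusted p = 0.769) did not pass, and a p of this size does not show that the level was the same. The 3 values lay closer together than those of *Lcn2* in any other group (SD 38.8 FPKM, n = 3, against 163 to 816 FPKM elsewhere). Replicate 3 did not stand apart for *Lcn2*, as it did for the other 9.

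At 4 h neither stimulus moved a granule gene past the threshold in the fit of all groups. With RANKL, 0 of the 10 were called and 0 had an unadjusted p under 0.05 (limma, and 0 were called by limma voom). Of all tested genes, 0.119% were called in either direction (14 genes, and 301 with the same fold limits at an unadjusted p under 0.05). *Mpo* was at 220, 288 and 158 FPKM and *Elane* at 422, 401 and 224 FPKM, close to the control sample of the same number. Ratios to that sample lay between 0.527 (*S100a8*, replicate 3) and 1.07 over the 10 genes, and 26 of the 30 were below 1. *Ltf*, at 365, 96.9 and 371 FPKM, was 0.688 to 0.788 of control. In the fit of these 2 groups alone with a replicate block, 306 of all genes and none of the 10 were called.

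With LPS for 4 h, 0 of the 10 were called, against 8.43% of tested genes called higher and 39.7% called lower (15.9% and 13.0% with samples centred on their median gene). The smallest unadjusted p of the 10 in limma was that of *Lcn2* (0.0868), and limma voom called 0. *Lcn2* was at 2286, 790 and 2101 FPKM against 1115, 315 and 1072 FPKM in control, and it was 1.96 to 2.51 times the control sample of the same number in 3 of 3 pairs. The log2 fold change was 1.11, with an SE of 0.60 in the fit of all groups (adjusted p = 0.127) and of 0.10 in the fit of the 2 groups with the replicate number as a block (adjusted p = 0.000639), which was added after seeing the data. With the block in the fit of all groups the adjusted p was 0.0575.
The other 9 genes had ratios of 0.368 to 0.930, below 1 in 27 of 27 pairs. *Ltf* was at 254, 62.7 and 198 FPKM and *Mpo* at 144, 183 and 76.2 FPKM. In the blocked fit of the 2 groups *Ltf* (log2 fold change -1.14, SE 0.11, adjusted p = 0.000799), *Mpo* (-0.87, SE 0.12, adjusted p = 0.00197) and *Elane* (-0.65, SE 0.11, adjusted p = 0.00395) were lower, and the other 6 did not pass both the fold and the p threshold. That fit called 43.3% of all genes lower and 9.32% higher, so the 3 of 10 lower members lie under the share of all genes. The median tested gene was itself lower, by 0.52 on the log2 scale. With samples centred on their median gene, *Ctsg*, *Ngp*, *Camp*, *S100a8* and *S100a9* had log2 fold changes of 0.11 to 0.28, the opposite sign, and *Lcn2* was called higher at 1.68 (adjusted p = 0.0477).

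**Figure D4:**
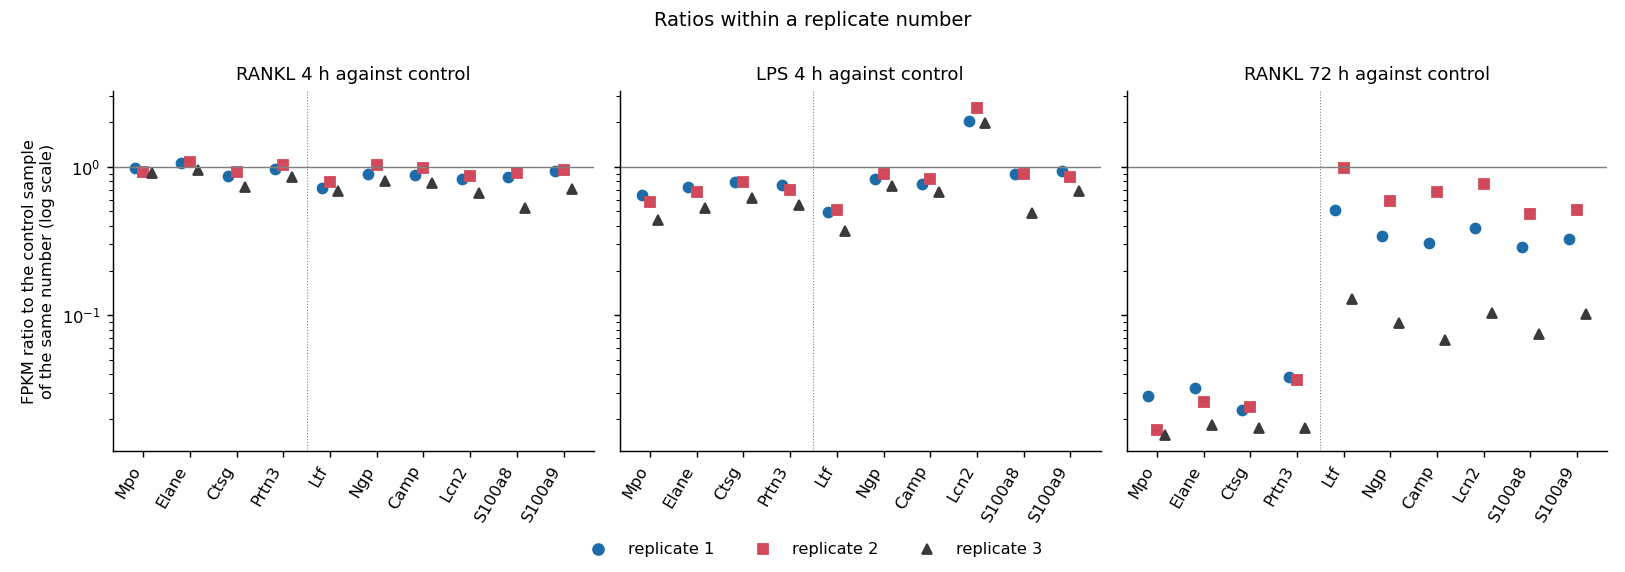
FPKM of each granule gene divided by that of the control sample with the same replicate number (log scale), for RANKL 4 h, LPS 4 h and RANKL 72 h, with azurophil genes left of the dotted line. At LPS 4 h *Lcn2* is at 1.96 to 2.51 and the other 9 genes are at 0.368 to 0.930. At RANKL 72 h the azurophil ratios are 0.0157 to 0.0387 and the later ratios 0.0681 to 0.989.

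Compared directly at 4 h, *Lcn2* was lower with RANKL than with LPS, at 928, 273 and 718 FPKM against 2286, 790 and 2101 FPKM, which was 0.342 to 0.406 within a replicate number. It was the only one of the 10 called (log2 fold change -1.46, SE 0.60, limma adjusted p = 0.0487), where 8.98% of tested genes were called lower with RANKL (16.2% with samples centred on their median gene). It was called in 14 of 29 settings, and its adjusted p reached 0.217 without RANKL 4 h replicate 2. The fit of the 2 groups with a replicate block called *Lcn2* and also *Mpo* (0.77, adjusted p = 0.00104), *Elane* (0.68, adjusted p = 0.000654) and *Ltf* (0.69, adjusted p = 0.000940), these 3 higher with RANKL. That fit called 45.0% of all genes higher and 9.98% lower, so the 3 of 10 higher members lie under the share of all genes.

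Compared directly at 72 h, 5 of the 6 later genes and 1 of the 4 azurophil genes were higher with RANKL than with LPS, where 23.3% of tested genes were called higher (19.0% with samples centred on their median gene, which called 4 members). *Ltf* was higher by 6.10 on the log2 scale (SE 1.02, limma adjusted p = 0.000299), *Ngp* by 5.76 (SE 1.11, adjusted p = 0.000876), *Camp* by 5.53 (SE 1.05, adjusted p = 0.000756) and *S100a9* by 4.48 (SE 1.14, adjusted p = 0.00592), each with all 3 RANKL samples above all 3 LPS samples, as in 31.5% of tested genes. *S100a8* (2.26, SE 0.79, adjusted p = 0.0310) and *Elane* (2.26, SE 0.82, adjusted p = 0.0361) were called with overlapping samples. The other azurophil genes did not pass, with *Mpo* at 1.92 (SE 0.83, adjusted p = 0.0735), *Prtn3* at 1.07 (SE 0.75, adjusted p = 0.262) and *Ctsg* at 0.53 (SE 1.14, adjusted p = 0.729). Without LPS 72 h replicate 3, *Mpo* (3.31, adjusted p = 3.13e-05) and *Prtn3* (2.22, adjusted p = 0.00237) were called as well. Without replicate 2 of all groups *Ltf*, *Ngp* and *Camp* were called, and the others were not. *Lcn2* went the other way, at 434, 240 and 110 FPKM with RANKL against 572, 648 and 594 FPKM with LPS, and did not pass (log2 fold change -1.42, SE 0.60, adjusted p = 0.0690) although all 3 RANKL samples were below all 3 LPS samples, as in 20.0% of tested genes.

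Between 4 h and 72 h of RANKL only the 4 azurophil genes were called, all lower, where 6.83% of tested genes were called lower (11.5% with samples centred on their median gene). Their log2 fold changes were between -5.55 (*Mpo*) and -4.99 (*Prtn3*), and those of the later genes between -1.85 (*Camp*) and -0.86 (*Ltf*). Without replicate 2 of all groups *Ctsg* was not called (-5.22, adjusted p = 0.0877), and without LPS 72 h replicate 3 *Ngp* (adjusted p = 0.0434) and *S100a8* (adjusted p = 0.0412) were called as well. With the replicate number as a block in the fit of all groups, *Lcn2* was called too (-1.33, limma adjusted p = 0.0474), and a fit of the 2 groups with the block called 8 of the 10 lower and 7.33% of all genes lower. Same-numbered samples of these groups also correlated weakly (0.162 to 0.251). Between 4 h and 72 h of LPS the 9 genes other than *Lcn2* were called lower, where 13.9% of tested genes were called lower (27.5% with samples centred on their median gene, which also called *Lcn2*), with log2 fold changes from -7.41 (*Ngp*) to -4.01 (*S100a8*). Without LPS 72 h replicate 3 these were -9.14 for *Ngp*, -8.08 for *Mpo*, -7.77 for *S100a9* and -4.99 for *S100a8*, and the same 9 genes were called. *Lcn2* was lower in all 3 samples at 72 h than in any at 4 h, as were 16.4% of tested genes, and its fall did not pass (log2 fold change -1.37, SE 0.60, adjusted p = 0.0585). The comparisons share samples with those against control, and are not independent of them. In order of group means, control, RANKL 4 h and LPS 4 h thus overlapped for all 10 genes, RANKL 72 h came next for the later genes except *Lcn2*, and LPS 72 h was the lowest, while RANKL 72 h and LPS 72 h overlapped for the 4 azurophil genes.

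Genes of the same granules outside the 10 were counted from lists. Of all tested genes, 16.6% were called higher and 7.54% lower in RANKL 72 h against control. These shares were 13.0% and 14.4% in LPS 72 h, and 8.43% and 39.7% in LPS 4 h. In RANKL 4 h no gene of any list was called. Of 6 further genes tied to azurophil granules, 2 were called lower in RANKL 72 h, *Prss57* (a serine protease of these granules, log2 fold change -4.18, SE 0.51, adjusted p = 7.76e-05) and *Ms4a3* (a membrane protein of granulocyte-monocyte progenitors, log2 fold change -5.04, SE 0.96, limma adjusted p = 0.00176). *Ctsc*, which activates the granule proteases and is also used by macrophages, had means of 83.0 FPKM in control and 72.9 in RANKL 72 h (adjusted p = 0.743). In LPS 72 h *Prss57*, *Ms4a3* and *Serpinb1a*, an inhibitor of the same proteases, were lower and *Srgn*, the proteoglycan core of granules, was higher (1.55, SE 0.30, adjusted p = 0.00143).

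Of 14 other later granule genes, 5 were called lower in RANKL 72 h (*Hp*, *Mmp25*, *Chil3*, *Fcnb* and *Slpi*) and 1 higher. The higher one was *Mmp9*, a gelatinase of tertiary granules that osteoclasts also make, with a log2 fold change of 4.98 (SE 0.65, limma adjusted p = 0.000136). The median of the 14 was -1.55, against -1.95 for the 6 later genes above. Which cells of the culture made these 14 transcripts was not tested. In LPS 72 h 7 of the 14 were lower, among them *Cd177* (-6.37), *Fcnb* (-5.91) and *Olfm4* (-5.33), and 3 were higher, *Slpi* (3.17, SE 0.50, adjusted p = 0.000330), *Mmp8* (1.30) and *Cybb* (0.69). In LPS 4 h 2 of the 14 were higher, *Hp*, haptoglobin (2.28, SE 0.51, adjusted p = 0.00179) and *Cybb* (1.28), and 2 were lower, *Mmp9* (-2.08) and *Mmp8* (-1.23). The 2 of 14 lower lie under the 39.7% of all tested genes called lower there.

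The factors that act along the granulocyte path were counted as well. Of 8, 5 were called lower in RANKL 72 h, namely *Myb* (log2 fold change -3.27), *Gfi1* (-3.18), *Cebpe* (-2.03), *Cebpa* (-1.29) and *Cebpb* (-0.93), and none higher. *Myb* is expressed in progenitors, *Gfi1* represses monocyte genes and *Cebpe* is needed for secondary granule genes. In LPS 72 h *Myb* (-4.80), *Gfi1* (-3.91) and *Cebpe* (-3.57) were lower, and *Cebpb* (1.21) and *Runx1* were higher. In LPS 4 h *Cebpb* (2.07) and *Cebpd* (1.72) were higher and *Cebpa* (-2.85) and *Cebpe* (-1.20) lower. There 39.7% of all tested genes were called lower and 8.43% higher, so the 2 of 8 lower lie under the share of all genes. Of 5 receptors of the secreted proteins, *Fpr2*, which binds the cathelicidin peptide, was lower in RANKL 72 h (-1.37) and higher in LPS 4 h (2.52) and LPS 72 h (2.71). The other 4 did not pass in RANKL 72 h or in LPS 72 h. In LPS 4 h 2 of the 5, *Tlr4* and *Lrp1*, were called lower, where 39.7% of all tested genes were.

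Of 8 markers of mature neutrophils, 1 (*Csf3r*, the G-CSF receptor, log2 fold change -1.09) was called in RANKL 72 h, lower. Their median log2 fold change was -0.90, and their summed level was 76.3 to 430 FPKM in control against 87.6 to 278 FPKM in RANKL 72 h. *Ly6g*, the usual surface marker of mouse neutrophils, was at 7.01, 0.802 and 11.2 FPKM in control against 10.2, 3.85 and 2.43 FPKM in RANKL 72 h. *Retnlg*, a gene of mature neutrophils, was at 40.0, 7.64 and 270 FPKM in control against 198, 70.9 and 52.4 FPKM in RANKL 72 h. In both, the samples overlapped and control replicate 2 was the lowest of its group, as it was for the 6 later genes. In LPS 72 h 4 of the 8 were lower (*Ly6g*, *Cxcr2*, *Retnlg* and *Padi4*) and *Stfa3* was higher. The share of all tested genes called lower was 14.4% in LPS 72 h. It was 7.54% in RANKL 72 h, and the 1 of 8 called there lies near it.

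Markers of other marrow cells were also lower at 72 h. In RANKL 72 h 3 of 6 progenitor markers (*Kit*, *Gata2* and *Hoxa9*), 5 of 5 basophil and mast cell markers, 5 of 5 eosinophil markers, 4 of 5 B cell markers and both erythroid markers that passed the filter were called lower. In LPS 72 h 5 of 6 progenitor, 4 of 5 basophil and mast cell, 5 of 5 eosinophil, 5 of 5 B cell and 1 of 2 erythroid markers were lower. Among all tested genes, 7.54% were called lower in RANKL 72 h and 14.4% in LPS 72 h. Of the 8 macrophage markers, 1 was higher (*Csf1r*) and 1 lower (*Fcgr1*) in RANKL 72 h, and 3 were higher in LPS 72 h, where 16.6% and 13.0% of all tested genes were called higher in RANKL 72 h and LPS 72 h. The summed eosinophil level, for instance, was 48.3 to 91.1 FPKM in control against 3.79 to 9.77 FPKM in RANKL 72 h. The 8 cell cycle genes were called higher in 2 cases and lower in none in RANKL 72 h, and all 8 were lower in LPS 72 h. Of 6 stromal markers, 1 (*Dcn*) was higher in LPS 72 h and 3 collagen genes were higher in RANKL 72 h, where the sum was 301 to 1403 FPKM against 103 to 225 FPKM in control. The part of these cells in the granule gene values was not tested.

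The genes whose log2 levels were most like those of 4 members, over the 15 samples and among the 9485 genes that averaged 1 FPKM or more, are given as a description, since the samples share their groups and replicate numbers. *Mpo* was most like *Elane* (Pearson r = 0.996), *Prtn3* (0.994), *Myl10* (0.991), *Ms4a3* (0.988) and *Myb* (0.984). *Ngp* was most like *Camp* (0.996), *Cd177* (0.993), *Pglyrp1* (0.992), *Ltf* (0.985) and *Serpinb1a* (0.985, the proteases' inhibitor). *S100a8* was most like *Lrg1* (0.979), *Pglyrp1* (0.979) and *Sept5* (0.977). *Lcn2* had none this close. Its nearest were *Dach1* (0.929), *F10* (0.928), *Dgat2* (0.923), *Il1f9* (0.905) and *Hp* (0.892), and its correlation with the other 9 members was 0.195 (*Ltf*) to 0.467 (*S100a8*). *Mpo* and *Ngp*, one from each set, were at 0.863.

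Of 5 acute-phase and NF-κB-responsive genes listed beside *Lcn2* (*Saa3*, *Nfkbiz*, *Steap4*, *Il1b* and *Il6*), 5 were called higher after 4 h of LPS and 4 after 72 h. In RANKL 72 h *Steap4* was higher and *Saa3* lower. Their summed level was 54.6 to 154 FPKM in control, 4078 to 4365 FPKM in LPS 4 h and 6945 to 13648 FPKM in LPS 72 h. *Saa3* made up most of the last sum, with 6740 to 13573 FPKM, and between 4 h and 72 h of LPS it was called higher while the other 4 were called lower (median of the 5 -3.47). In RANKL 72 h the summed level of the 5 genes was 32.2 to 39.7 FPKM, below every control sample, and *Lcn2* was at 110 to 434 FPKM there.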

How the data were processed

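RNA from the 15 BMDM samples was sequenced, and the deposited table gives FPKM per gene, which the authors computed with StringTie after alignment to the mouse genome. Bone marrow cells were grown in M-CSF before stimulation, for 4 days by the methods and for 3 by the series text. The methods name edgeR for group comparisons, which was not applied because the deposited values are FPKM. Numbers of fragments were recovered from the steps of the FPKM values for the 14485 genes that were detected in 3 or more samples, where 100.0% of values were whole within 0.01 fragments, and what 1 fragment was worth differed by up to 1.10-fold between samples. The table ended in 1 incomplete entry, and genes past it in the alphabet are not analysed here.

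Values were taken as log2(FPKM + 0.1), and the 11743 genes that averaged 0.1 FPKM or more were fitted in all 5 groups with limma 3.58.1 (R 4.3.3, eBayes with a trend, two-sided, Benjamini-Hochberg over all genes tested). Files were read with Python 3.11.15, numpy 2.4.6, pandas 2.3.3 and matplotlib 3.10.9. The fit was tested on simulated data for RANKL 72 h against control, with 11743 genes, where it called 35 of 68 genes changed by 1 on the log2 scale, 56 of 66 changed by 2, 65 of 66 changed by 4 and 9 of 11543 unchanged genes. So changes near 2-fold are often missed at 3 samples per group. The limit is wider for members whose samples spread more. In RANKL 72 h against control, *Ngp* (log2 fold change -1.94, SE 1.11), *Camp* (-2.05, SE 1.05) and *S100a9* (-1.96, SE 1.14) did not pass. *S100a8* (-2.20, SE 0.79) passed narrowly. Intervals from 0 fragments cover counting error only.

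Groups came from the labels. The members and all gene lists were chosen with earlier results of these data known. Genes named were the 10 members, genes of the lists and the 5 genes most like each of *Mpo*, *Ngp*, *Lcn2* and *S100a8*. Alternatives were other pseudocounts, filters and scalings, the replicate number as a block, only the compared groups, limma without a trend, unadjusted p-values, limma voom on recovered fragments, and each sample left out. Chosen after seeing the data were the compared groups alone with the block, and all groups without replicate 2.

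Replicate numbers were checked for pairing, since the labels do not say what they share. Deviations from the group means of same-numbered samples correlated, over 9486 genes, at 0.707 to 0.842 for RANKL 4 h and control, 0.440 to 0.624 for LPS 4 h and control, 0.136 to 0.318 for RANKL 72 h and control, 0.162 to 0.251 for RANKL 72 h and RANKL 4 h and 0.555 to 0.692 for RANKL 4 h and LPS 4 h. All exceeded 0.1, so the blocked values are given for these pairs. Same numbers were not always the closest, since samples of different numbers reached 0.265 for RANKL 72 h and control and 0.208 for RANKL 72 h and RANKL 4 h. For comparisons with LPS 72 h they were between -0.229 and 0.184. Gene positions are from GENCODE M21 (GRCm38) and upstream sequences from RefSeq (GRCm38.p6), where all 10 genes matched. Strand of counting was not given in the sources used here.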

Additional observations from a re-analysis of the deposited data

Results flagged for a closer look

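For 4 genes the level with RANKL differed between 4 h and 72 h by the limma contrast of both times, where 6.83% of tested genes were called lower. The longer culture enters this difference and cannot be told apart from RANKL. The log2 difference of 72 h minus 4 h was -5.55 for *Mpo*, -5.35 for *Elane*, -5.21 for *Ctsg* and -4.99 for *Prtn3*. None of the 6 later genes passed this contrast.

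For 9 genes the level with LPS differed between the times by the same kind of contrast, where 13.9% of tested genes were called lower. The longer culture enters here too. The log2 difference was -6.69 for *Mpo*, -6.92 for *Elane*, -5.55 for *Ctsg*, -5.55 for *Prtn3*, -6.28 for *Ltf*, -7.41 for *Ngp*, -7.17 for *Camp*, -4.01 for *S100a8* and -6.15 for *S100a9*. *Lcn2* did not pass. Groups of 3 samples are too small for the test of single outlying samples.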

How the results depend on the processing

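For RANKL 72 h against control 6 granule genes were called, and 4 to 6 with 1 sample left out. For LPS 72 h against control 9 were called, and 9 to 9 with 1 left out. The other comparisons gave 0 to 0 (RANKL 4 h against control), 0 to 1 (LPS 4 h against control), 4 to 6 (RANKL 72 h against RANKL 4 h), 9 to 10 (LPS 72 h against LPS 4 h), 0 to 1 (RANKL 4 h against LPS 4 h) and 4 to 8 (RANKL 72 h against LPS 72 h, 6 with all samples and 8 without LPS 72 h replicate 3). The count for RANKL 4 h against LPS 4 h went from 1 to 0 with a pseudocount of 1, no filter, only these groups, no trend, voom and without replicate 2 of all groups. It was 3 of 6 for RANKL 72 h against LPS 72 h without replicate 2 of all groups. Centring on the median gene gave 1 call for LPS 4 h against control. The causes were not tested. At 3 samples per group changes near 2-fold are often missed, and larger ones did not pass in members with a wide spread. Low fragment numbers limit the azurophil genes, *Camp* and *Ltf* in LPS 72 h replicates 1 and 2.

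With replicate numbers used as a block in the fit of all groups, RANKL 72 h against control had 6 granule genes called, RANKL 72 h against RANKL 4 h 5, LPS 4 h against control 0, and RANKL 4 h against control 0 of the members and 24 of all genes. Among the 11743 tested genes, that fit called 992 lower in RANKL 72 h against control and 895 lower in RANKL 72 h against RANKL 4 h. In LPS 4 h against control it called 4790 lower and 1037 higher. For pairs with LPS 72 h the numbers may not pair the samples, and the block added *Lcn2* to LPS 72 h against LPS 4 h (adjusted p = 0.0213, 10 called) and to RANKL 72 h against LPS 72 h (adjusted p = 0.0259). These comparisons had 1708 and 1577 of the 11743 tested genes called lower. The block with only the compared groups, added after seeing the data, called 9 for RANKL 72 h against control, 4 for LPS 4 h against control, 8 for RANKL 72 h against RANKL 4 h and 4 for RANKL 4 h against LPS 4 h. It called 8.13% of all genes lower in the first of these and 7.33% in the third. In LPS 4 h against control it called 43.3% lower and 9.32% higher, and in RANKL 4 h against LPS 4 h 9.98% lower and 45.0% higher.

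Over all genes, 14 were called in RANKL 4 h against control, but 301 by unadjusted p, 0 with only these groups, 24 with the block, 306 with both, 3 without a trend, 0 without replicate 2 of all groups and 1 to 17 with 1 sample left out. Without replicate 2 of all groups 1050 (not 2837) were called in RANKL 72 h against control, 1189 (not 3212) in LPS 72 h against control, 909 (not 2732) in RANKL 72 h against RANKL 4 h and 2394 (not 4245) in RANKL 72 h against LPS 72 h. Centred on the median gene, 3400 (1871 higher, 1529 lower; 990 and 4660 without centring) were called in LPS 4 h against control and 3485 (not 5872) in RANKL 4 h against LPS 4 h. Centring also changed the split of higher and lower genes from 1951 and 886 to 1167 and 1428 in RANKL 72 h against control, from 1930 and 802 to 1141 and 1351 in RANKL 72 h against RANKL 4 h, from 5186 and 1631 to 2209 and 3224 in LPS 72 h against LPS 4 h, from 4818 and 1054 to 1580 and 1905 in RANKL 4 h against LPS 4 h and from 2739 and 1506 to 2237 and 2045 in RANKL 72 h against LPS 72 h. With 1 sample left out the counts were 2060 to 3110 (RANKL 72 h against control), 5169 to 5801 (LPS 4 h against control), 2477 to 3959 (LPS 72 h against control), 1939 to 3015 (RANKL 72 h against RANKL 4 h), 6281 to 7114 (LPS 72 h against LPS 4 h), 5459 to 6021 (RANKL 4 h against LPS 4 h) and 3589 to 4846 (RANKL 72 h against LPS 72 h).

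Signs of changes that did not pass turned in places. Centring on the median gene gave log2 fold changes in LPS 4 h against control of 0.11 for *Ctsg*, 0.28 for *Ngp*, 0.16 for *Camp*, 0.12 for *S100a8* and 0.28 for *S100a9*, and in RANKL 4 h against LPS 4 h of -0.37 for *Ctsg*, -0.060 for *Prtn3*, -0.42 for *Ngp*, -0.36 for *Camp*, -0.55 for *S100a8* and -0.51 for *S100a9*. A pseudocount of 1 gave -0.20 for *Ctsg* in RANKL 72 h against LPS 72 h. With 1 sample left out, RANKL 4 h against control gave -0.30 to 0.13 for *Mpo*, -0.20 to 0.33 for *Elane*, -0.54 to 0.11 for *Ctsg*, -0.30 to 0.20 for *Prtn3*, -1.15 to 0.19 for *Ltf*, -0.71 to 0.33 for *Ngp*, -0.87 to 0.38 for *Camp*, -0.95 to 0.18 for *Lcn2*, -1.02 to 0.013 for *S100a8* and -0.74 to 0.21 for *S100a9*. LPS 4 h against control gave -0.85 to 0.21 for *Ngp*, -1.07 to 0.20 for *Camp* and -0.80 to 0.19 for *S100a9*, and LPS 72 h against control -0.86 to 0.056 for *Lcn2*. RANKL 4 h against LPS 4 h gave -0.19 to 0.57 for *Ctsg*, -0.35 to 0.61 for *Ngp*, -0.40 to 0.79 for *Camp*, -0.42 to 0.46 for *S100a8* and -0.42 to 0.50 for *S100a9*, and RANKL 72 h against LPS 72 h -1.39 to 1.92 for *Ctsg*. Over all results and settings 2079 values kept direction and side of the threshold, 44 newly passed, 66 no longer passed and 51 turned.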
